A study of Mus musculus with 12 samples.

Results

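The cytosolic ribosomal protein genes were followed in the olfactory bulb (OB) of Tg2576 mice and wild-type (WT) littermates. A gene was taken as a member when its symbol on the array was Rpl or Rps followed by digits and at most 1 final letter a, x, y or l, or was Rplp0, Rplp1, Rplp2 or Rpsa. The rule gave 60 of the 19505 genes with a symbol, of which 37 encode proteins of the large subunit and 23 proteins of the small subunit. Each member had 1 probeset, which is the set of probes that measures a gene. The rule fits 81 protein-coding symbols of RefSeq, of which 59 were members here. The other 22, such as Rpl10, Rpl13a, Rps3 and Rplp2, carry no symbol in the array annotation and were not analysed. The member Rps4l is not among the 81.

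The ribosome joins a large and a small subunit, each built of ribosomal RNA and of ribosomal proteins, most of them in a single copy. The small subunit binds the mRNA and reads its codons, and the large subunit joins the amino acids and lets the growing chain out through a tunnel. Most ribosomal protein mRNAs start with a C and a run of pyrimidines, the 5′ terminal oligopyrimidine (TOP) motif, through which growth signals control their translation together. Neurons use ribosomes in the soma and near synapses, and many ribosomal protein genes have processed pseudogenes elsewhere in the genome. Whether such copies added signal to a probeset was not tested.

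The mRNA came from the OBs of 12 female mice, each on its own Clariom S mouse array (Affymetrix), with 3 mice in each of 4 groups. These are Tg2576 and WT mice of 6 months and Tg2576 and WT mice of 2 months. Ages are those of the sample labels, and the study's table of animals gives another age for the younger mice. Tg2576 mice carry human APP with the Swedish mutation under the prion promoter on a C57BL/6/SJL background, which their WT littermates share without the transgene. The whole bulb was used, so that fewer cells of a type and less RNA per cell cannot be told apart. Values are log2 intensities, on which a difference of 1 is a doubling, and the 3 mice per group limit the precision.

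The medians of the arrays over 22206 gene probesets ran from 8.24 to 8.27, and their correlations with each other from 0.978 to 0.995. Neuronal markers had mean values between 10.8 and 11.2 in every array, and markers of olfactory sensory neurons between 9.01 and 10.2. A probeset was called when limma gave an unadjusted p under 0.01 and the fold change was above 1.3 or below 0.7. All p-values here are limma's, from 1 fit to the 4 group means. After Benjamini-Hochberg adjustment at 0.05, limma called 0 members in any of the comparisons, and 1 of all probesets (0.0045%), in WT mice of 6 against 2 months. Counts at an unadjusted p under 0.05 stand with each comparison. The means of the members lay between 6.18 and 13.0, and 42 of the 60 were among the 2221 brightest gene probesets.

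The sequences at the start of the genes are shown because the TOP motif defines how most of these mRNAs are regulated. RefSeq windows of 300 bases around annotated gene starts (build GRCm38.p6, 250 bases before and 50 after the start) were found for 47 members. The start was a C followed by at least 4 pyrimidines in 12 of the 47 (25.5%), 7 of the large and 5 of the small subunit, against 3.01% of 27025 genes. In 6 of those members, 30 bases around the annotated start read as follows, with the run of pyrimidines from the start on in capitals.
Rpl15 (chr14:18270972-18271001, minus strand): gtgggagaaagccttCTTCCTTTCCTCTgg
Rpl35 (chr2:39005117-39005146, minus strand): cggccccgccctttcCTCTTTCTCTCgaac
Rpl38 (chr11:114668565-114668594, plus strand): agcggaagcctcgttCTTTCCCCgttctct
Rps10 (chr17:27635230-27635259, minus strand): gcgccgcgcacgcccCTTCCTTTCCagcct
Rps21 (chr2:180257364-180257393, plus strand): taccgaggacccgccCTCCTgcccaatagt
Rps6 (chr4:86857353-86857382, minus strand): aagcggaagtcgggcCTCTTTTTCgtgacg
With the start allowed to move by up to 5 bases, 21 of the 47 (44.7%) had such a run, against 21.2% of all genes. Annotated starts can lie some bases from the start that cells use, and such a shift hides a run.

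The members called below that have a window did not have the run at their annotated start or within 5 bases of it. The same 30 bases are shown for these 4, which are Rpl6, Rpl11, Rpl23 and Rpl9, with the annotated first base in capitals.
Rpl6 (chr5:121204486-121204515, plus strand): tggtcacctcccgtcAttgcttatagaccg
Rpl11 (chr4:136053379-136053408, minus strand): ctgacccataaggccAcggggccggaagtc
Rpl23 (chr11:97782425-97782454, minus strand): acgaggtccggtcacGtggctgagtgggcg
Rpl9 (chr5:65391417-65391446, minus strand): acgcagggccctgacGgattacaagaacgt
The letters CCGGAAG, a form of the site that ETS-family factors bind, stood on either strand in 20 of 47 member windows (42.6%), against 9.93% of all genes. Among the called members, Rpl6 and Rpl11 had them just after the start, as shown here with the 7 letters in capitals.
Rpl6 (chr5:121204502-121204531, plus strand): ttgcttatagaCCGGAAGccgctgccttag
Rpl11 (chr4:136053369-136053398, minus strand): aggccacggggCCGGAAGtctccctctctc
On the same windows and both strands, GCATGCGC of NRF1 was in 3 members (6.38%, against 3.05% of all genes), AAGATGGC of YY1 in 3 (6.38%, against 3.19%) and TATAAA in 6 (12.8%, against 15.7%). Members with CCGGAAG had a median Tg2576 minus WT log2 difference of 0.25 (n = 20) at 2 months and those without it one of 0.14 (n = 27). For the TOP run at the start these medians were 0.25 (n = 12) with it and 0.17 (n = 35) without it. A match is only a string of letters, and these medians were not tested.

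At 2 months of age the mRNA of ribosomal proteins tended to be higher in the OB of Tg2576 mice than in that of WT mice. The log2 difference was above 0 for 53 of 60 members, with a median of 0.19, against a median of 0.01 over all gene probesets. Called higher were 4 members, Rpl6, Rps29, Rpl23 and Rpl9, against a background of 0.401% of all probesets, and 0 were called lower, against 0.171%. These are 6.67% of the members, and 3 of the 4 belong to the large subunit. At an unadjusted p under 0.05, 19 members were higher, 14 large and 5 small, where 3.31% of all probesets were. In 10 members every Tg2576 value lay above every WT value, which held for 5.23% of all probesets, and in 0 members the reverse was so, against 4.73%. The lowest adjusted p of a member was 0.762.

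**Figure D1:**
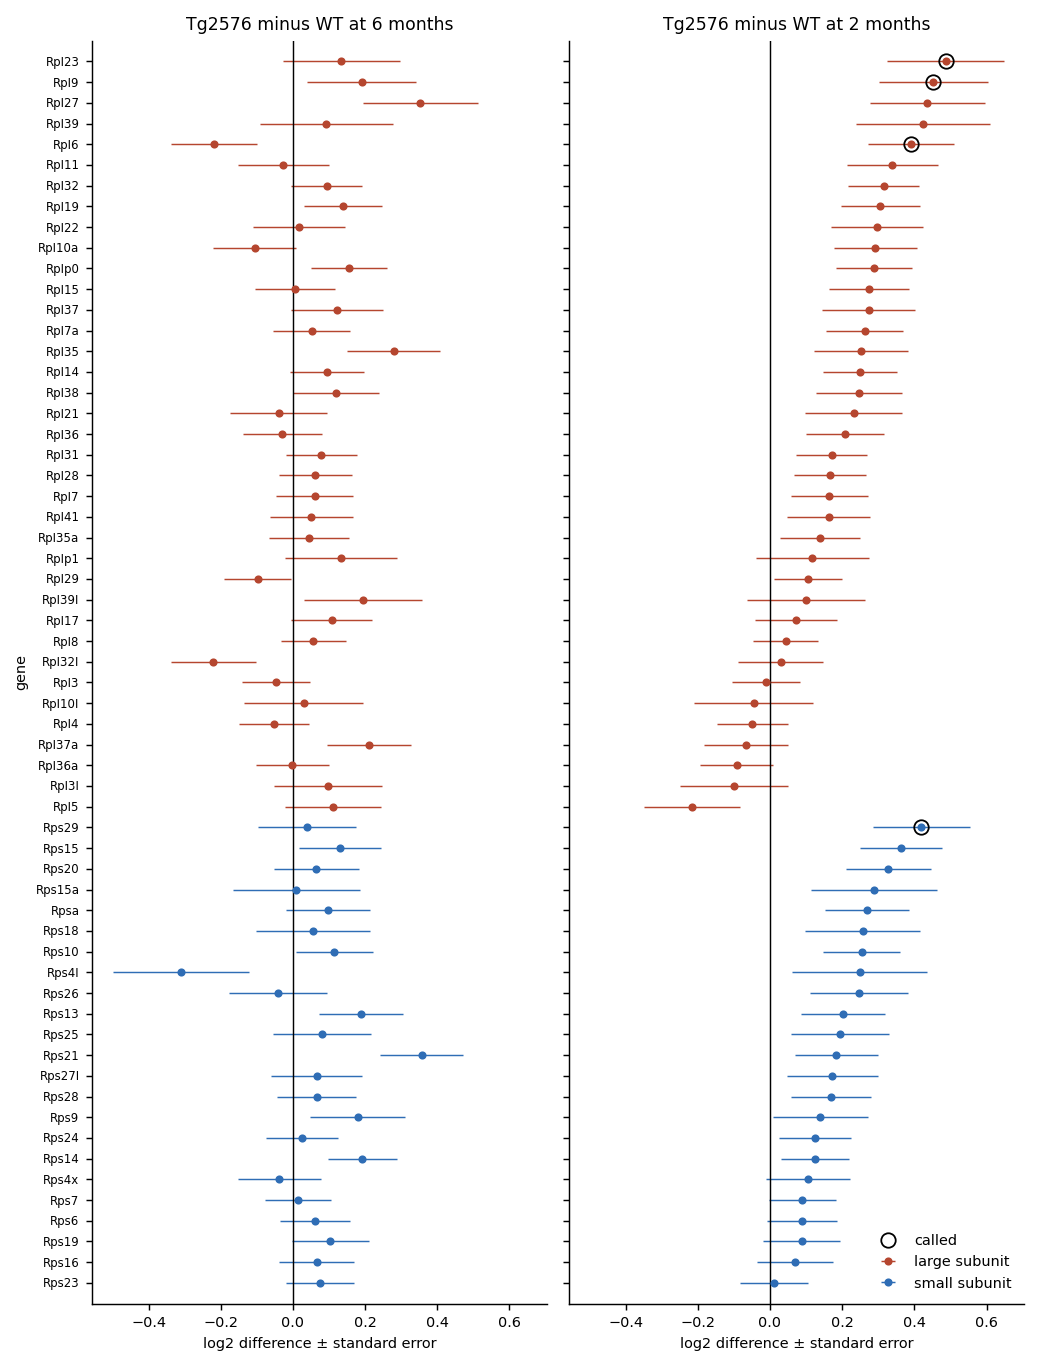
Log2 difference between Tg2576 and WT mice for each of the 60 genes at 6 months (left) and 2 months (right), with its standard error from limma; colours give the subunit and open rings the called genes. At 2 months 53 points lie above 0 and 4 are called, and at 6 months 47 lie above 0 and 0 are called.

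Rpl6 encodes a protein of the large subunit and was the 1 called member whose groups did not overlap. Its log2 values were 11.96, 11.99 and 12.08 in Tg2576 mice of 2 months, against 11.39, 11.66 and 11.80 in WT mice. All Tg2576 mice lay above all WT mice, and WT mouse 1 was the lowest. The difference was 0.39 (standard error 0.12, 95% interval 0.14 to 0.65, limma adjusted p = 0.762). The call was lost in 4 of the 12 fits that each left out 1 array.

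Rpl23, which with Rpl5 and Rpl11 can hold back the p53 ligase Mdm2, had the largest difference. Its values were 10.85, 10.80 and 11.22 in Tg2576 mice, against 10.13, 10.40 and 10.87 in WT mice, a difference of 0.49 (standard error 0.16, limma adjusted p = 0.762). WT mouse 3 lay above 2 of the 3 Tg2576 mice, so the groups overlapped. This call was lost in 10 of those 12 fits.

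Rpl9, another protein of the large subunit, had values of 11.62, 11.51 and 11.82 in Tg2576 mice and 10.88, 11.12 and 11.59 in WT mice. Rps29, a zinc-binding protein of the small subunit, had 12.15, 12.03 and 12.44 in Tg2576 mice and 11.55, 11.78 and 12.03 in WT mice. In both genes Tg2576 mouse 3 was highest, WT mouse 1 lowest, and WT mouse 3 reached the Tg2576 values. The differences were 0.45 for Rpl9 (standard error 0.15, limma adjusted p = 0.762) and 0.42 for Rps29 (standard error 0.13, limma adjusted p = 0.762). The call of Rpl9 was lost in 9 of the 12 fits and that of Rps29 in 6.

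Rpl27 (0.44, limma adjusted p = 0.762) and Rpl39, a short protein that lines the exit tunnel (0.42, limma adjusted p = 0.777), had differences of a like size but missed the p limit. Rps15 (0.36, limma adjusted p = 0.762) and Rpl32 (0.31, limma adjusted p = 0.762) passed the p limit and stayed under the fold limit. In both of these the groups did not overlap. Rps15 values were 11.35, 11.31 and 11.48 in Tg2576 mice, against 10.79, 11.03 and 11.23 in WT mice. The remaining members without overlap were Rpl11, Rpl19, Rpl36, Rpl7a, Rplp0, Rps10 and Rps14.

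**Figure D2:**
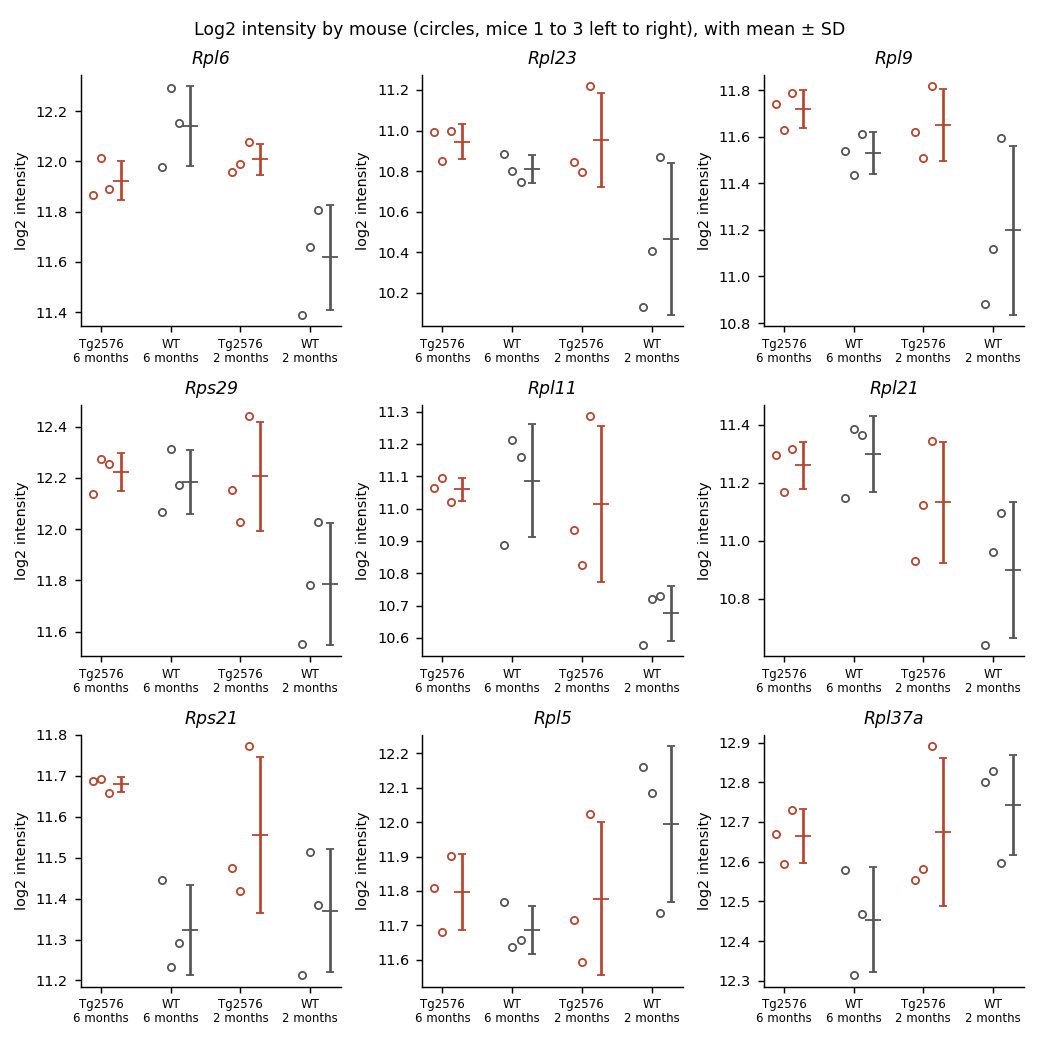
Log2 intensity of 9 ribosomal protein genes in each of the 12 mice (circles), with the mean and SD of each group of 3 beside them; the axis of each panel has its own range. Rpl6 separates the 2-month groups, while Rpl5 is highest in WT mice 1 and 2 of 2 months.

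The members did not all differ alike. Rpl5, which carries 5S ribosomal RNA into the large subunit together with Rpl11, had the lowest difference at 2 months. Its values were 11.72, 11.59 and 12.02 in Tg2576 mice, against 12.16, 12.08 and 11.74 in WT mice. Here WT mice 1 and 2 were the highest of all 12 mice, whereas they were the lowest of all 12 for Rpl6. The difference was -0.22 (95% interval -0.50 to 0.07, limma adjusted p = 0.852) and did not pass. Its partner Rpl11 had 10.94, 10.82 and 11.29 in Tg2576 mice and 10.58, 10.72 and 10.73 in WT mice, a difference of 0.34 (limma adjusted p = 0.762) without overlap of the groups.

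Rpl37a had 12.55, 12.58 and 12.89 in Tg2576 mice, against 12.80, 12.83 and 12.60 in WT mice, and a difference of -0.07 (limma adjusted p = 0.98). The core protein Rpl3, which reaches towards the catalytic centre, lay at -0.01 (95% interval -0.21 to 0.19), Rpl4 of the exit tunnel at -0.05 and Rps23 of the decoding centre at 0.01. All 23 members of the small subunit were above 0 at 2 months, and the 7 members at or below 0 were all of the large subunit, among them Rpl36a (-0.09) and the paralogs Rpl3l (-0.10) and Rpl10l (-0.05).

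The 4 members called at 2 months are on none of the lists by the place and role of the protein. The 0 called on these lists therefore follows from which genes were listed. The P stalk, which recruits elongation factors, was measured through Rplp0 (0.29) and Rplp1 (0.12) at 2 months. The 6 proteins of the tunnel and its exit had a median of 0.21, and 4 proteins of the L1 stalk and the catalytic neighbourhood one of 0.07. In the small subunit, the 4 proteins at the mRNA exit, Rps14, Rps26, Rps28 and Rpsa, had a median of 0.21. Rps6, the substrate of S6 kinase, was at 0.09, and the ubiquitin targets Rps10 and Rps20 were at 0.25 and 0.33. Within the 6 proteins of the tunnel and its exit alone, the differences ran from -0.05 for Rpl4 to 0.42 for Rpl39. The probeset of Rpl39 was among the dimmest of the members, with a mean of 7.36.

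The large and the small subunit had close medians at both ages. At 6 months the median difference was 0.06 for the large and 0.07 for the small subunit, and large minus small was -0.0032. At 2 months it was 0.21 for the large and 0.18 for the small subunit, and large minus small was 0.024. The SD between mice of 1 group was 0.022 for the large minus the small median deviation and 0.093 for the median deviation of all members. With the members split by brightness into 3 sets of 20, the medians at 2 months were 0.23 in the dim, 0.19 in the middle and 0.17 in the bright set. The 2221 brightest gene probesets, with 42 members among them, had a median of -0.01.

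Single mice had a large part in the values at 2 months. For each member the deviation of a mouse from the mean of all 12 mice was taken. The median deviation over members was -0.0011, -0.0024 and 0.20 in Tg2576 mice 1 to 3 of 2 months, against -0.27, -0.14 and 0.0036 in WT mice 1 to 3. Tg2576 mouse 3 was the highest and WT mouse 1 the lowest, whereas WT mouse 3 lay level with Tg2576 mice 1 and 2. In Tg2576 mice of 6 months these medians were 0.06, 0.03 and 0.10, and in WT mice of 6 months 0.01, -0.04 and 0.05. Tg2576 mouse 3 of 2 months was the highest of 12 mice for 32 members (53.3%), against 12.2% of all gene probesets. WT mouse 1 of 2 months was the lowest of 12 for 41 members (68.3%), against 10.8% of all gene probesets. Tg2576 mouse 3 of 2 months also had the highest mean of the polyA controls, at 5.83 against 5.46 to 5.66 in the other arrays, and the lowest of the hybridization controls, at 11.3. The part of these controls in its ribosomal protein values was not tested.

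**Figure D3:**
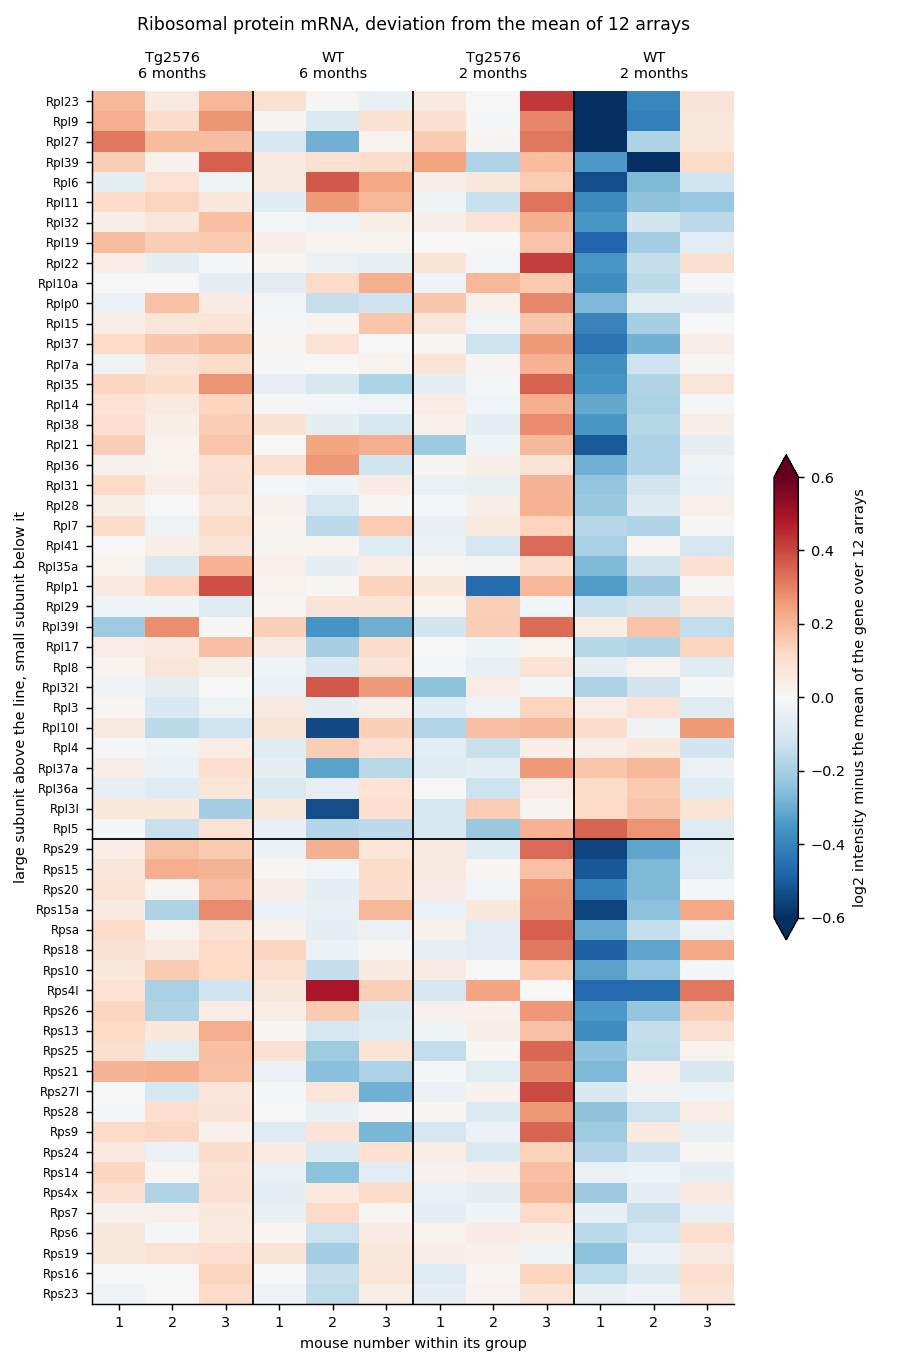
Deviation of each gene's log2 intensity from its mean over the 12 arrays, with genes in lines (large subunit above, small subunit below, each ordered by the difference at 2 months) and mice in columns by group. WT mouse 1 of 2 months is the lowest for 41 of 60 genes and Tg2576 mouse 3 of 2 months the highest for 32.

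Without Tg2576 mouse 3 of 2 months the median difference at that age was 0.12. In that fit 0 members were called, where 0.288% of all probesets were called higher. Without WT mouse 1 the median was 0.12 as well, with 0.14 for the large and 0.11 for the small subunit. Here too 0 members were called, where 0.144% of all probesets were called higher. The largest median was 0.26, without WT mouse 3, and 15 members were then called higher, against 1.77% of all probesets in that fit. There 29 members were higher at an unadjusted p under 0.05, against 5.76% of all probesets. The count was 1 without Tg2576 mouse 1 (0.342% of all probesets called higher), 5 without Tg2576 mouse 2 (0.662%) and 0 without WT mouse 2 (0.437%). It was between 1 and 3 without a mouse of 6 months (0.329% to 0.441%), which changes the error and not the difference. Without both Tg2576 mouse 3 and WT mouse 1, a choice made after the values were seen, the median was 0.03 and 0 members were called. The median was above 0 in each fit that left out 1 array of 2 months. Leaving out an array of 6 months cannot change this median.

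**Figure D4:**
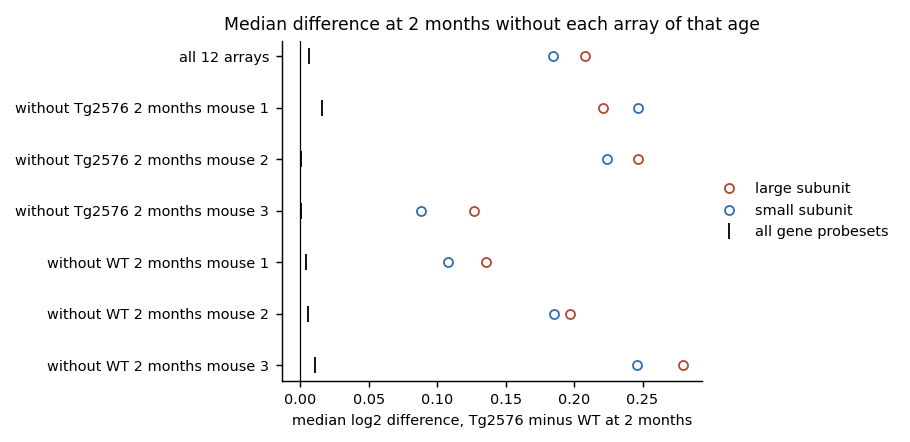
Median log2 difference between Tg2576 and WT mice at 2 months, with all arrays and without each array of that age, for the large subunit, the small subunit and all gene probesets. Medians of the subunits lie between 0.09 and 0.28, and those of all probesets stay near 0.

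The leptomeninges, the membranes around the bulb, can be taken along in dissection. At 2 months their markers lay higher in Tg2576 mice, as the ribosomal protein genes did. From 2 to 6 months the median of the markers was -0.28 in Tg2576 mice, where that of the members was 0.01. In WT mice it was -0.04, where that of the members was 0.11. All 15 leptomeningeal markers measured were above 0 at 2 months, with a median of 0.50 and 3 called, Omd, Ogn and Igf2. Their mean was 8.68, 8.68 and 9.20 in Tg2576 mice of 2 months, against 8.06, 8.45 and 8.59 in WT mice. As for the ribosomal protein genes, Tg2576 mouse 3 was highest and WT mouse 1 lowest. With this mean as a covariate the median of the members at 2 months was 0.02 and 0 were called. Because the marker means of the 2 groups do not overlap at that age, the fit separates them poorly from genotype. Means of astrocyte markers were 9.69 to 9.84 in Tg2576 mice of 2 months, against 9.59 to 9.80 in WT mice, and those of microglial markers 8.65 to 8.91, against 8.60 to 8.70. All 7 markers of olfactory sensory neurons were above 0 at 2 months, with a median of 0.12 and 0 called. Their means ran from 9.13 to 10.2 in Tg2576 mice of 2 months, against 9.27 to 9.58 in WT mice, so the groups overlapped. Neuronal markers had a median of 0.15 (13 of 16 above 0, 1 called higher). Markers of ensheathing glia had one of 0.17 (5 of 6 above 0, 0 called) and those of endothelium one of -0.08 (2 of 7 above 0, 0 called). The part of the leptomeninges and of these other cells in the result was not tested.

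**Figure D5:**
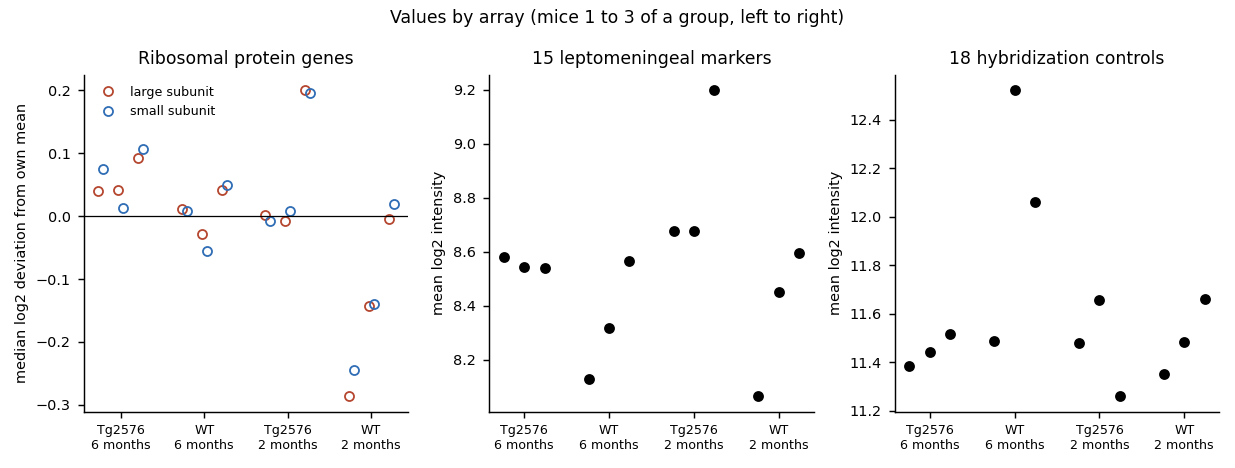
Values of each array by group: median deviation of the large and small subunit genes from their own means (left), mean of 15 leptomeningeal markers (middle) and mean of 18 hybridization controls (right), all in log2 units. Tg2576 mouse 3 of 2 months is highest and WT mouse 1 of 2 months lowest in the first and second panels, and WT mice 2 and 3 of 6 months stand apart in the third.

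In 6-month-old mice the differences between Tg2576 and WT OBs were smaller. The median of the members was 0.07, with 47 of 60 above 0, against 0.01 over all gene probesets. Called were 0 members higher (background 0.644%) and 0 lower (background 0.401%). At an unadjusted p under 0.05, 3 members were higher, Rps21, Rpl27 and Rpl35, which is 5% of the members, against 4.16% of all probesets. Without overlap of the groups 10 members were higher, against 7.56%, and 1 was lower, Rpl29, against 7.29%. Markers of some other cells had larger differences than the members at this age. The median was 0.38 for olfactory sensory neurons (7 of 7 above 0, 0 called). For oligodendrocytes it was 0.30 (8 of 8 above 0, 1 called) and for leptomeninges 0.30 (11 of 15 above 0, 1 called). Microglial markers were at 0.17 (8 of 8 above 0, 0 called) and astrocyte markers at 0.15 (6 of 8 above 0, 0 called). Those of ensheathing glia were at 0.09 (5 of 6 above 0, 0 called). Markers of neurons were at 0.03 (10 of 16 above 0, 1 called). Those of neuroblasts were at -0.06 (1 of 8 above 0) and those of endothelium at -0.08 (3 of 7 above 0). Their part in the members' values was not tested.

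Rps21, a short protein of the small subunit, had the largest difference at this age. Its values were 11.69, 11.69 and 11.66 in Tg2576 mice of 6 months, against 11.44, 11.23 and 11.29 in WT mice. All Tg2576 mice lay above all WT mice. The difference of 0.36 (standard error 0.12, limma adjusted p = 0.475) passed the p limit and missed the fold limit. At 2 months its difference was 0.18, with overlapping groups. Rpl27 (0.35, limma adjusted p = 0.57) and Rpl35 (0.28, limma adjusted p = 0.577), which sits at the tunnel exit, also had groups without overlap, as did Rpl37a (0.21, limma adjusted p = 0.636).

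The lowest differences at 6 months were those of the paralog Rps4l (-0.31, 95% interval -0.71 to 0.09), of Rpl32l (-0.22), of Rpl6 (-0.22) and of Rpl10a (-0.11, limma adjusted p = 0.835), and 0 of them passed. Rpl29 had 11.61, 11.62 and 11.57 in Tg2576 mice, against 11.65, 11.72 and 11.73 in WT mice. The groups did not overlap, and the difference was -0.10 (limma adjusted p = 0.811).

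From 2 to 6 months the ribosomal protein genes of Tg2576 mice had differences on both sides of 0. The 6 minus 2 months difference had a median of 0.01, with 34 of 60 members above 0. Called were 0 members higher (background 0.36%) and 0 lower (background 0.167%), and 2 members, Rpl17 and Rps19, had groups without overlap and higher at 6 months, against 7.24% of all probesets. In 1 member, Rpl29, they did not overlap and were lower, against 6.96%, with 11.61, 11.62 and 11.57 in Tg2576 mice of 6 months, against 11.66, 11.79 and 11.63 in those of 2 months. At an unadjusted p under 0.05, limma had 0 members higher, against 2.72%, and 0 lower, against 2.89%. The lowest p in this comparison was that of Rplp1 of the P stalk, with 12.50, 12.57 and 12.83 in Tg2576 mice of 6 months, against 12.50, 11.98 and 12.64 in Tg2576 mice of 2 months (0.26, limma adjusted p = 0.908). Mouse 2 of 2 months lay far below the other 5. Rpl22 (-0.17, limma adjusted p = 0.925) and Rpl10a (-0.13, limma adjusted p = 0.928) came next. In these mice the 6 minus 2 months difference of all 15 leptomeningeal markers lay below 0, with a median of -0.28 and 0 called.

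In WT mice the same genes tended to be higher at 6 than at 2 months. The median difference was 0.11 with 48 of 60 above 0, against -0.01 over all gene probesets. Called higher were 3 members, Rpl6, Rpl11 and Rpl21, all of the large subunit, against a background of 1.45%, and 0 were called lower, against 0.293%. At an unadjusted p under 0.05, 14 members were higher, against 6.62%, and 2, Rpl5 and Rpl37a, were lower, against 5.39%. In 10 members the groups did not overlap and were higher at 6 months, against 7.22%, and in 1, Rpl37a, they were lower, against 6.16%. Markers of several other cell types lay on the other side of 0. The median was -0.41 for oligodendrocytes (8 of 8 below 0, 3 called lower). For olfactory sensory neurons it was -0.40 (7 of 7 below 0, 0 called). Astrocyte markers were at -0.17 (2 of 8 above 0, 0 called) and neuroblast markers at -0.11 (3 of 8 above 0, 1 called higher). Markers of endothelium (-0.02), microglia (-0.01) and ensheathing glia (-0.0010) lay near 0. Neuronal markers lay on the side of the members, with a median of 0.08 (13 of 16 above 0, 1 called higher). Leptomeningeal markers were at -0.04 (7 of 15 above 0, 0 called). Their part in the members' values was not tested. This comparison and that of genotype at 2 months share the 3 WT mice of 2 months, in which mice 1 and 2 had the lowest ribosomal protein values, so the 2 are not independent.

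Rpl6 had 11.98, 12.29 and 12.15 in WT mice of 6 months, against 11.39, 11.66 and 11.80 in WT mice of 2 months. The groups did not overlap, and the difference was 0.52 (standard error 0.12, 95% interval 0.27 to 0.78, limma adjusted p = 0.238). The call held in all 12 fits that left out 1 array. Rpl11 had 10.89, 11.21 and 11.16 in WT mice of 6 months, against 10.58, 10.72 and 10.73 in those of 2 months (0.41, limma adjusted p = 0.267).

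Rpl21, of the large subunit, had 11.15, 11.38 and 11.36 in WT mice of 6 months, against 10.64, 10.96 and 11.10 in those of 2 months (0.40, limma adjusted p = 0.292). Neither Rpl11 nor Rpl21 overlapped between the ages, and the call of Rpl11 was lost in 4 and that of Rpl21 in 8 of the 12 fits. Without WT mouse 1 of 2 months 1 member was called higher, against 0.977% of all probesets in that fit, without WT mouse 3 of 2 months 11 were, against 2.78%, and the median was 0.06 in the fit without mouse 1 and 0.19 in that without mouse 3. Rpl5 (-0.31, limma adjusted p = 0.391) and Rpl37a (-0.29, limma adjusted p = 0.372) again lay on the other side of 0. In Rpl37a the groups did not overlap, with 12.58, 12.31 and 12.47 in WT mice of 6 months, against 12.80, 12.83 and 12.60 in those of 2 months.

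WT mice 2 and 3 of 6 months stood apart by their hybridization controls, which are bacterial and phage sequences added to every array. Their means were 12.5 and 12.1, against 11.3 to 11.7 in the other arrays. Without these 2 arrays the WT difference of Rpl6 was 0.36, that of Rpl11 0.21 and that of Rpl21 0.25, 0 members were called, and the median was 0.14. With the controls as a covariate 0 members were called either, with 0.36 for Rpl6. In Rpl6 the same 2 mice were the highest of all 12.

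Whether the genotype difference itself changed with age was asked with the interaction term, the difference at 6 months minus that at 2 months. Its median over members was -0.11, with 15 of 60 above 0, and 0.00 over all gene probesets. At the unadjusted p under 0.01, with no limit on the fold, 1 member was lower, Rpl6, against 0.518% of all probesets, and 0 were higher, against 0.261%. At an unadjusted p under 0.05, 2 were lower, Rpl6 and Rpl10a, against 3.22%. In Rpl6 the Tg2576 minus WT difference was -0.22 at 6 months and 0.39 at 2 months, and the change between them was -0.61 (standard error 0.17, 95% interval -0.97 to -0.25, limma adjusted p = 0.842). Its Tg2576 values at 6 months were 11.87, 12.01 and 11.89, and its 6 minus 2 months difference was -0.08 in Tg2576 mice and 0.52 in WT mice. Rpl10a of the L1 stalk (-0.40, limma adjusted p = 0.842) and Rps4l (-0.56, limma adjusted p = 0.842) followed. The interaction uses the same WT mice of 2 months as the genotype difference at that age and the WT difference over age. The calls of Rpl6 in these comparisons are therefore not independent. The call of Rpl6 for the interaction held in all 12 fits that left out 1 array. The change was -0.44 and missed the p limit both without WT mice 2 and 3 of 6 months and with hybridization controls as a covariate.

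Some paralogs of ribosomal proteins are used mainly in testis or muscle, and 0 of the 5 on the list of paralogs were called in any comparison. Rpl3l, known from heart and skeletal muscle, lay at 0.10 at 6 months and -0.10 at 2 months, where the canonical Rpl3 lay at -0.05 and -0.01. Rpl39l, known from testis, lay at 0.19 at 6 months and 0.10 at 2 months, and Rpl39 at 0.09 and 0.42. Rpl39l, Rpl39 and Rpl3l were the dimmest members, with mean log2 intensities of 6.18, 7.36 and 7.36. Rps27l had 0.07 at 6 months and 0.17 at 2 months. Rps4l had values of 8.88, 8.89 and 9.67 in WT mice of 2 months.

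Of 5 further ribosomal genes outside the naming rule, 4 lay above the members' median of 0.19 at 2 months. Rps27rt had 0.45, Rpl36al 0.41, Rpl22l1 0.36 and Fau, which encodes the small subunit protein eS30 joined to a ubiquitin-like part, 0.35, each with a limma adjusted p of 0.762. Rpl7l1, which is known from assembly of the large subunit, lay at -0.10. Fau (0.39) and Rps27rt (0.55) were called higher in WT mice of 6 against 2 months. Rpl36al differed from its paralog Rpl36a, which lay at -0.09 at 2 months.

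Genes that build and serve the cytosolic ribosome had medians near 0 at 2 months, with single genes on both sides. The 29 genes of ribosome biogenesis had a median of 0.02, with 16 above 0 and 0 called, and nucleolin (Ncl) lay at -0.19. The 19 genes of TOP mRNA control, such as Larp1 and Mtor, had a median of -0.01, and 9 elongation factors and their partners one of -0.04, each with 0 called. Of the 9 elongation genes 3 were higher at an unadjusted p under 0.05, Eef1b2 (0.33), Eef1g (0.32) and Eef2 (0.31), whereas Eef1d lay at -0.22 and Eif5a at -0.21. The count at that limit was 1 higher and 1 lower of 29 for biogenesis, 0 of 19 for TOP mRNA control and 1 higher and 2 lower of 10 for loading and quality control. The 10 genes of ribosome loading and quality control had a median of 0.02. In a list added after the values were seen, 76 mitochondrial ribosomal proteins had a median of 0.12 with 62 above 0. Of these, 12 were higher and 1 lower at an unadjusted p under 0.05. At that limit 734 of all 22206 gene probesets (3.31%) were higher and 669 lower. At 6 months the median was 0.08 for the mitochondrial list and between -0.02 and 0.08 for the other 4.

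In the comparisons by age, the chaperone Dnajc2, which sits at the tunnel exit, was called higher in WT mice of 6 against 2 months (0.41, limma adjusted p = 0.258). Eif6, which keeps new large subunits from joining small ones too early, was called for the interaction (-0.61, limma adjusted p = 0.842). Its values were 9.67, 9.84 and 9.81 in Tg2576 mice of 6 months, against 10.19, 10.22 and 10.08 in WT mice of that age, with no overlap. At 2 months they were 10.00, 10.04 and 10.13 in Tg2576 mice, against 9.59, 9.88 and 10.03 in WT mice. These 2 genes, Fau and Rps27rt were the called ones on the 5 ribosomal lists outside the members, the mitochondrial one left aside.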

How the data were processed

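The authors extracted OB RNA, amplified 1 ng of it, hybridized it to Mouse Clariom S arrays and deposited RMA values, which are background-corrected, quantile-normalized log2 intensities per probeset. The sources used here give no version of RMA. Quantile normalization sets all arrays to 1 distribution, so a shift shared by all genes is not visible. Control probesets (6923) were left out. Of 22206 gene probesets 19572 carry 1 symbol and 2634 none. Limma 3.58.1 in R 4.3.3 (statmod 1.5.0) was fitted to 4 group means over 12 arrays, with moderated variances, and tested on simulated data. Benjamini-Hochberg adjustment covered all gene probesets. The p limit is that of the study's methods.

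Members, lists and tests were chosen with earlier results of these data known. Named were called members, the 4 largest differences in each direction by genotype, the 3 lowest p by age and for the interaction, role lists, paralogs, and up to 4 called genes per list; other members are named where a count is given. The 3 mice of a group are separate animals. Deviations of same-numbered mice correlated at -0.27 to 0.18, so numbers were not taken as pairs. Alternatives were other fits, priors, weights, normalizations, covariates, limits and left-out arrays. Promoter windows came from RefSeq. Plots were drawn with matplotlib.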

Additional observations from a re-analysis of the deposited data

Results flagged for a closer look

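The Tg2576 minus WT difference of Rpl6 changed between the ages by -0.61 on the log2 scale (limma adjusted p = 0.842), and this interaction was the reason to list it. The difference was -0.22 at 6 months and 0.39 at 2 months. The interaction shares the WT mice of 2 months with the other calls of Rpl6 and is not independent of them. Groups of 3 mice are too small for a test of single outlying mice, so none was run.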

How the results depend on the processing

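Counts of called members and some medians depended on the settings. In fits without 1 array, the count was 0 to 15 for genotype at 2 months, 0 to 1 at 6 months, 0 to 0 for age in Tg2576 mice, 1 to 11 for age in WT mice and 1 to 3 for the interaction. Medians were 0.12 to 0.26, 0.04 to 0.09, -0.03 to 0.08 and 0.06 to 0.19 for the first 4 of these. Large minus small ran from -0.0255 to 0.0388 at 2 months and from -0.0128 to 0.0278 at 6 months. In the same fits 0.144% to 1.77% of all probesets were called higher at 2 months and 0.468% to 1.9% at 6 months. That share was 0.239% to 0.707% for age in Tg2576 mice and 0.887% to 2.78% for age in WT mice. At 2 months the count fell to 0 in the 6 arrays of that age alone, to 2 with median centring, to 2 without WT mice 2 and 3 of 6 months, to 2 with hybridization controls as a covariate and to 0 with leptomeningeal markers as a covariate, where the median was 0.0214. In WT mice over age it was 0 without WT mice 2 and 3 of 6 months and 0 with hybridization controls, and the interaction count was 0 in both. Without Tg2576 mouse 3 and WT mouse 1 of 2 months, chosen after seeing the data, the counts were 0 at 2 months (median 0.0342), 1 in WT mice over age and 0 for the interaction. With the leptomeningeal covariate the median for age in Tg2576 mice was 0.10, and with array weights large minus small at 2 months was 0.0587. At adjusted p under 0.05 counts were 0 in each of these comparisons, and at unadjusted p under 0.05 without a fold limit they were 19 at 2 months, 3 at 6 months, 16 in WT mice over age, of which 14 were higher, and 2 for the interaction. With the replicate block counts were 4, 0, 0, 4 and 1 and medians did not move (0.19 at 2 months), and it moved no count by over 1.5 times. The cause of these changes was not tested. A fit that leaves 1 mouse in a group assumes that it varies like the other groups.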
